A study of Mus musculus with 34 samples.

Results

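The 9 protein-coding genes Atn1, Mospd3, Pcbp1, Pcbp2, Mbd6, Zfp395, Pitpnb, Eif1 and Adnp had low values in mouse liver libraries from which ribosomal RNA (rRNA) had been removed by probe pull-down. They were selected on their measured counts, as genes with lower values there than in the rRNA digestion, polyA-selected and unselected libraries, and are 9 of 51368 genes in the table. All 9 passed the filter on low counts, which left 15422 genes tested. Because the choice used the pull-down contrasts, the size of the deficit is given below as a description and nothing is supported with it.

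RNA-seq libraries made by different kits from shared total RNA were compared. All RNA came from 1 wild-type C57BL/6J mouse aged 12 weeks, whose sex is given as female in one label and male in another. Liver RNA (200 ng, 13 PCR cycles) was prepared 9 times by polyA selection with TruSeq Stranded mRNA in batch 1. It was also prepared 9 times by rRNA pull-down with TruSeq Stranded Total RNA and 9 times by enzymatic rRNA digestion with Illumina Stranded Total RNA Prep and Ribo-Zero Plus, both in batch 2. Within each method the 9 libraries crossed 3 PCR ramp rates (slow, medium, fast) with 3 fragment lengths (short, medium, long), with 1 library per combination. Unselected libraries received 20 ng of RNA and the pull-down kit's chemistry without depletion, with 3 from liver in each of 2 batches and 1 from heart in batch 1. All of them had slow ramp and medium fragment length, and their number of PCR cycles is not given. Replicates are therefore separate preparations of RNA from 1 animal, and p-values measure technical spread only. PolyA selection and batch 1 cannot be told apart when polyA is set against either rRNA method, and the methods also differ in kit. A percentage of an unselected mean, as given below, sets libraries of all ramps and lengths against slow, medium-length ones.

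PolyA selection keeps RNA with a polyA tail, whereas rRNA removal leaves all other RNA and acts by hybridisation of DNA probes to rRNA. In pull-down the probe-bound RNA is captured on beads and discarded, and in digestion it is degraded by RNase H. The 9 genes have diverse roles: Eif1 helps the small ribosomal subunit select the start codon, Pcbp1 and Pcbp2 are poly(C)-binding proteins that act on mRNA stability and translation, Pitpnb transfers phosphatidylinositol between membranes, Mospd3 is an endoplasmic reticulum protein with a major sperm protein domain, Atn1 is a transcriptional co-repressor, Mbd6 belongs to the methyl-CpG-binding domain family, Zfp395 is a zinc finger protein, and Adnp is a homeodomain protein of chromatin complexes.

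The genes lie on 7 chromosomes in GRCm38, as annotated in GENCODE M21. Atn1 (ENSMUSG00000004263) is at chr6:124742544-124756524 and Pcbp1 (ENSMUSG00000051695) at chr6:86524492-86526321, both on the minus strand. Mospd3 (ENSMUSG00000037221) is at chr5:137596645-137601058 on the minus strand, and Pitpnb (ENSMUSG00000050017) at chr5:111330763-111388359 on the plus strand. Pcbp2 (ENSMUSG00000056851, chr15:102470539-102500061), Zfp395 (ENSMUSG00000034522, chr14:65358389-65398930) and Eif1 (ENSMUSG00000035530, chr11:100319885-100322096) are on the plus strand, and Mbd6 (ENSMUSG00000025409, chr10:127281956-127289018) and Adnp (ENSMUSG00000051149, chr2:168180986-168207112) on the minus strand.

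Since both rRNA methods use probes made to rRNA, the stretches that these transcripts share exactly with annotated rRNA were searched on both strands. The rRNA records in the GENCODE M21 annotation used were an 18S-like record of 1849 bases, mt-Rnr1 (955 bases) and mt-Rnr2 (1582 bases); 28S rRNA and the kits' probe sequences were not used here. The longest and shortest results are shown, each within 30 bases of the gene's main transcript, 5′ to 3′ in the transcript's sense, with the shared run in capitals (GRCm38). The run shown for Adnp matches mt-Rnr1 on that record's own strand. Those for Pcbp1 and Eif1 match the 18S-like record as annotated, and that for Mbd6 matches its opposite strand. Whether the 18S-like record runs in the direction of mature rRNA was not tested. Which of these runs a probe to rRNA could pair with is therefore not given.
Pcbp1, 5′ UTR, exon 1, chr6:86526026-86526055, minus strand: cccgcccgCGCCCGCCCGCTCCtgcggccc
Mbd6, coding, exon 8, chr10:127284353-127284382, minus strand: cagggagaCCCCAACTTCTTAGccctctgc
Adnp, coding, exon 4, chr2:168182633-168182662, minus strand: tgataattTAGAGGAGCCTGTaccgaaggt
Eif1, 5′ UTR, exon 1, chr11:100320078-100320107, plus strand: ccgcagccgCCTTCCGCAGGccgtttccac

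The run was 14 bases in Pcbp1 and Mbd6, 13 bases in Adnp and 11 bases in Eif1. Over the 9 members it ranged from 11 to 14 bases, with a median of 12. Over 13354 coding genes the median was also 12 and the 95th percentile was 15, so the members' runs lay within the range of coding genes. The longest simple repeats are shown for Adnp and Zfp395, the members with the longest ones, with the repeat in capitals.
Adnp, coding, exon 4, chr2:168182561-168182590, minus strand: aGAGGAGGAGGAGGAGGAGGAGGAGGAGga
Zfp395, 3′ UTR, exon 10, chr14:65396751-65396780, plus strand: ctTCTCTCTCTCTCTCTCTCTCTCTCTCtt

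These repeats spanned 27 bases of the GAG unit in Adnp and 26 bases of the TC unit in Zfp395. The shortest was 6 bases, in Mospd3, and the 95th percentile over coding genes was 39. GC content separated the members more than either run: 63.1% in Mbd6, 62.0% in Atn1 and 60.2% in Mospd3, above the 95th percentile of coding genes (59.8%), but 42.9% in Pcbp2 and 46.5% in Pitpnb, below the median of 50.04%. Transcript length ran from 1322 bases in Eif1 to 4932 bases in Adnp, around a median of 3128 over coding genes. None of these features set all 9 members apart from other coding genes.

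Libraries held 19873384 to 21695699 counts in unselected liver, 23453481 to 41396087 with polyA selection, 19984269 to 30169400 with digestion and 22292139 in heart. Pull-down libraries held 23376047 to 39186284 counts in 8 cases, and the library with slow ramp and long fragments held 1126377. It is called the low-depth library below, and the values without it are given where it moves a result. Liver markers (Alb, Apoa1, Ttr, Serpina1a, Cyp2e1) were abundant in all 33 liver libraries. Heart markers (Myh6, Tnnt2, Actc1, Myl2, Nppa) summed to at most 0.995 CPM in liver and to 41789 CPM in heart, of the counts outside rRNA and Lars2. In bulk tissue, fewer cells of a type and less RNA per cell cannot be told apart. Levels below are CPM, the counts scaled to library size, after TMM adjustment (normalised CPM), and are compared between libraries for 1 gene, not between genes, since they are not divided by length.

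On the fitted log2 scale the deficit was deepest, apart from Adnp, in Mospd3 and Atn1. Atn1 had 21.8, 23.4 and 26.1 normalised CPM in unselected batch 1 and 26.1, 21.9 and 23.9 in unselected batch 2. It ranged from 23.1 to 25.7 (median 24.6) after digestion, from 15.9 to 30.6 (median 23.1) after polyA selection and from 2.56 to 5.72 (median 3.07) after pull-down. Every pull-down library was below every other liver library for this gene, and the pull-down mean of 3.41 ± 0.96 (SD, n = 9) was 14.2% of the unselected batch 2 mean (13.0% without the low-depth library). Mospd3 had 15.5, 9.34 and 14.4 in unselected batch 1 and 12.3, 7.71 and 10.9 in batch 2. It ranged from 12.05 to 13.9 (median 13.2) after digestion, from 15.6 to 24.1 (median 19.7) after polyA selection and from 0.627 to 11.4 (median 1.12) after pull-down. Here the groups overlapped through the low-depth library alone, at 11.4; the other 8 pull-down libraries lay between 0.627 and 1.48. The pull-down mean was 21.6% of unselected batch 2 with that library and 10.4% without it.

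The poly(C)-binding protein genes were low by similar fractions. Pcbp1 had 65.3, 62.5 and 56.1 normalised CPM in unselected batch 1, 53.3, 52.1 and 55.7 in batch 2, 75.1 to 83.2 (median 76.6) after digestion and 74.4 to 94.7 (median 80.2) after polyA selection. After pull-down it ranged from 10.1 to 35.9 (median 11.8), below all other liver libraries, with the highest value again in the low-depth library. Pcbp2 had 114, 108 and 111 in unselected batch 1, 96.2, 102 and 107 in batch 2, 105 to 114 (median 111) after digestion and 134 to 146 (median 139) after polyA selection. Its pull-down values were 19.4 to 42.5 (median 20.7), again without overlap. The pull-down means were 26.9% (Pcbp1) and 23.2% (Pcbp2) of the unselected batch 2 means, and 21.8% and 20.9% without the low-depth library.

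Mbd6 and Zfp395 encode nuclear proteins. Mbd6 had 33.2, 28.5 and 27.3 normalised CPM in unselected batch 1, 23.0, 22.9 and 24.9 in batch 2, 29.3 to 32.1 (median 31.4) after digestion and 20.4 to 42.4 (median 34.6) after polyA selection. Its pull-down values were 2.99 to 14.7 (median 5.28), below all the others. Zfp395 had 51.3, 53.4 and 44.9 in unselected batch 1, 43.7, 47.3 and 46.5 in batch 2, 49.9 to 54.7 (median 53.4) after digestion and 41.6 to 55.0 (median 50.5) after polyA selection. Pull-down gave 6.53 to 24.5 (median 10.6), also without overlap.

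Pitpnb had the narrowest relative spread of the 9 genes in pull-down, with a coefficient of variation of 6.50%, and 5.81% without the low-depth library. Pitpnb had 40.6, 44.9 and 41.9 normalised CPM in unselected batch 1, 40.8, 42.3 and 48.4 in batch 2, 44.0 to 49.0 (median 46.4) after digestion, 52.7 to 59.6 (median 55.7) after polyA selection and 10.2 to 12.3 (median 10.97) after pull-down. Eif1 had 146, 139 and 140 in unselected batch 1 and 153, 157 and 140 in batch 2. It ranged from 102 to 123 (median 106) after digestion, from 191 to 216 (median 201.3) after polyA selection and from 23.8 to 37.0 (median 27.6) after pull-down. The Eif1 pull-down mean was 19.5% of the unselected batch 2 mean (19.1% without the low-depth library). Neither gene's pull-down values overlapped any other liver group, and in both the low-depth library sat among or next to the other pull-down libraries. A set of 10 processed pseudogenes shares 100 or more 31-base stretches with Eif1, and in no library did they hold more than 0.709% of the Eif1 count. The coding gene Emd shares 16.2% of the 31-base stretches of Eif1 transcripts and had a mean of 167 counts after pull-down and 271 after digestion, so Eif1's counts could in part be split with it; this was not tested.

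**Figure D1:**
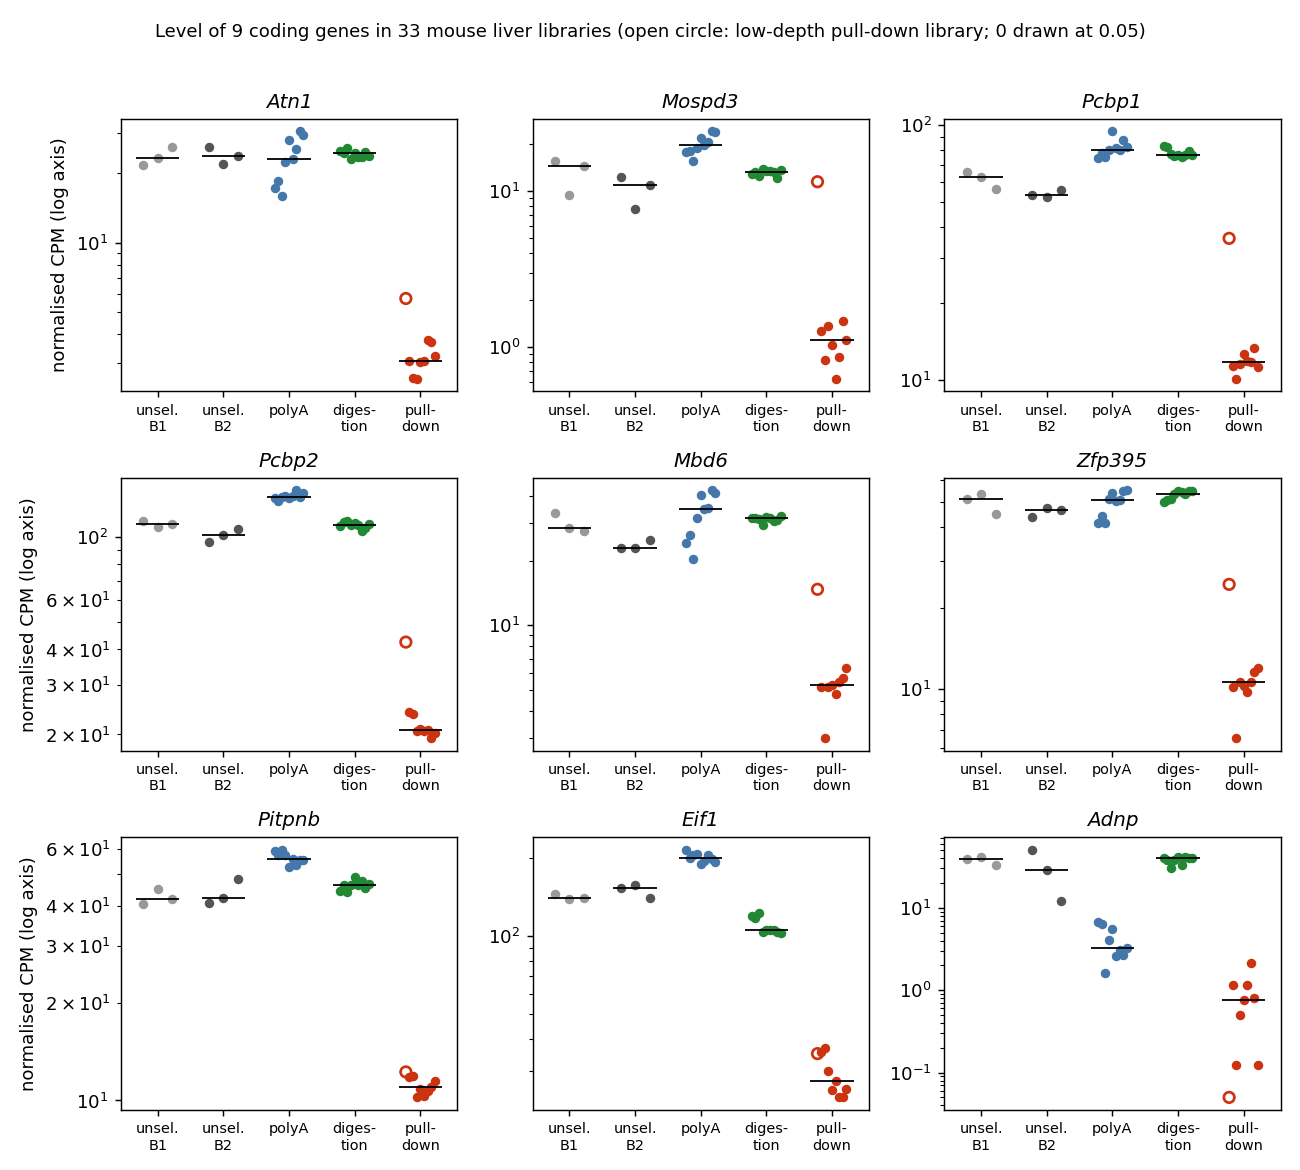
Normalised CPM (log axis) of each of the 9 genes in the 33 liver libraries, 1 point per library, with lines at the group medians; B1 and B2 are the batches of unselected RNA. The pull-down points sit below all other groups for 7 genes, the open circle (the low-depth library) rises into the other groups for Mospd3, and Adnp is also low after polyA selection.

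In 7 of the 9 genes, all but Mospd3 and Adnp, the highest pull-down library was below the lowest of the 24 other liver libraries. Of all genes tested, 474 (3.07%) had this pattern; as the pattern is what the genes were chosen for, nothing is read from the difference. Without the low-depth library the count was 8, with Adnp the exception, and 4.86% of the genes tested had the pattern. Against the digestion library of the same ramp and length, each gene was lower after pull-down in 9 of 9 pairs, as were 21.5% of the genes tested. The same held against polyA, where 19.8% of the genes tested were lower in every pair. Leaving out the low-depth library and Adnp, the pull-down value was between 4.70% (Mospd3) and 30.4% (Eif1) of its digestion partner and between 3.19% (Mospd3) and 22.9% (Zfp395) of its polyA partner.

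**Figure D2:**
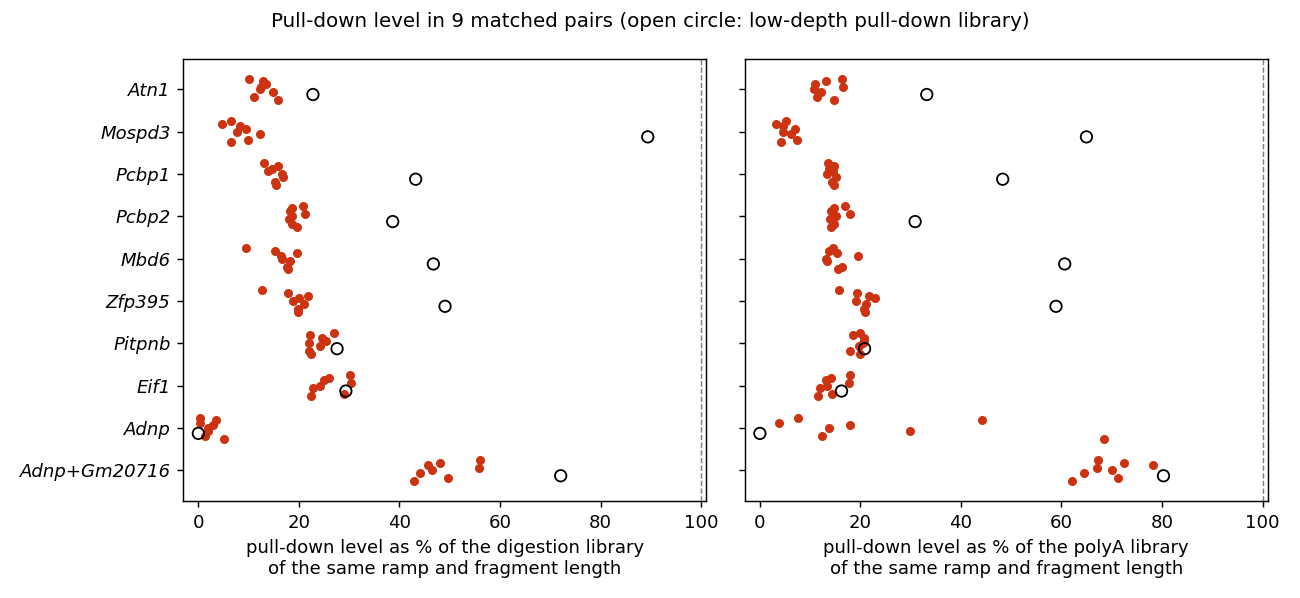
Pull-down level as a percentage of the digestion (left) or polyA (right) library with the same ramp rate and fragment length, 9 pairs per gene. Open circles mark the low-depth library, which lies well to the right of the other 8 for Atn1, Mospd3, Pcbp1, Pcbp2, Mbd6 and Zfp395 in both panels, and just beyond them for Pitpnb; the bottom row sums Adnp with the overlapping gene Gm20716.

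In edgeR's quasi-likelihood fit over the 33 liver libraries, the log2 fold change of pull-down against unselected batch 2 was between -2.02 (SE 0.07, Pitpnb) and -3.22 (SE 0.32, Mospd3) for 8 genes, and -5.04 (SE 0.45) for Adnp. Without the low-depth library the 8 lay between -2.02 and -3.31, and Adnp was at -5.03. All 9 were called lower (adjusted p under 0.05), as were 15.3% of the genes tested. All 9 were called higher after digestion than after pull-down (34.7% of the genes tested were) and higher after polyA selection than after pull-down (36.4% were). These counts restate the choice of the genes. Set against library totals that include rRNA, the picture was different. Genes annotated as rRNA, mitochondrial rRNA not among them, held 70.0% to 73.5% of counts in the unselected liver libraries. Their part in the difference was not tested. Without TMM scaling the median log2 fold change of all genes between pull-down and unselected was 2.31 against 0.06 with it. On that scale Mbd6, Zfp395, Pitpnb, Pcbp1 and Pcbp2 had log2 fold changes between 0.02 and 0.24, which is a deficit only relative to the other genes.

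Adnp's counts can be split with an overlapping gene that shares most of its sequence. The annotated read-through gene Gm20716 (chr2:168180986-168230364, minus strand, GRCm38) spans Adnp (chr2:168180986-168207112) and holds 85.5% of the 31-base stretches of Adnp transcripts, so reads from this region can be assigned to either gene. Adnp had 38.7, 41.8 and 33.2 normalised CPM in unselected batch 1 and 50.8, 28.3 and 12.1 in batch 2. It ranged from 30.1 to 41.8 (median 39.6) after digestion, from 1.61 to 6.80 (median 3.28) after polyA selection and from 0 to 2.12 (median 0.769) after pull-down. Among the 3 selection methods Gm20716 was lowest after digestion and highest after polyA selection, with 7.96 to 19.0 (median 13.9) after digestion, 28.8 to 39.2 (median 33.5) after polyA selection and 21.7 to 34.3 (median 24.9) after pull-down. In single unselected libraries it ran from 0 to 17.9 in batch 1 and from 0 to 51.5 in batch 2, the batch 2 range spanning those of all 3 methods. Adnp's share of the counts of both genes was 61.3% to 83.3% after digestion, 3.94% to 15.9% after polyA selection and 0% to 8.90% after pull-down. In unselected RNA the share ran from 64.9% to 100% in batch 1 and from 19.1% to 100% in batch 2, so it varied widely between preparations made alike.

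When the counts of both genes were summed, an alternative chosen after the data were seen, pull-down libraries held 22.7 to 34.3 normalised CPM (median 25.1) and digestion libraries 47.6 to 55.6 (median 52.0). The summed pull-down level was 45.5% of unselected batch 2, where Adnp alone gave 2.45%. The log2 fold change of pull-down against unselected was then -1.14 (SE 0.10) in place of -5.04. PolyA libraries held 32.1 to 42.7 (median 37.6) for the sum, without overlap with digestion. The sum thus stayed lowest in pull-down apart from the low-depth library at 34.3, which overlapped polyA. Whether the counts belong to Adnp or to Gm20716 was not tested. For Atn1 the overlapping gene Gm45234 shares 85.3% of the 31-base stretches, and it held counts in 2 libraries: 14 in a polyA library with 564 Atn1 counts, and 13 in the low-depth pull-down library, where Atn1 had 7. The sum of both genes in that pull-down library was 20 counts, or 16.34 normalised CPM, against 2.56 to 3.77 in the other 8 pull-down libraries. The summed pull-down values therefore overlapped polyA, where the lowest sum was 16.31, through that library, and the 7 genes with pull-down below every other liver library became 6. Summing moved Atn1's log2 difference between long and short pull-down libraries from -0.27 to -0.08 (SE 0.36). The difference between fast and slow ones moved from -0.07 to -0.27 (SE 0.36), and neither was called by edgeR.

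**Figure D3:**
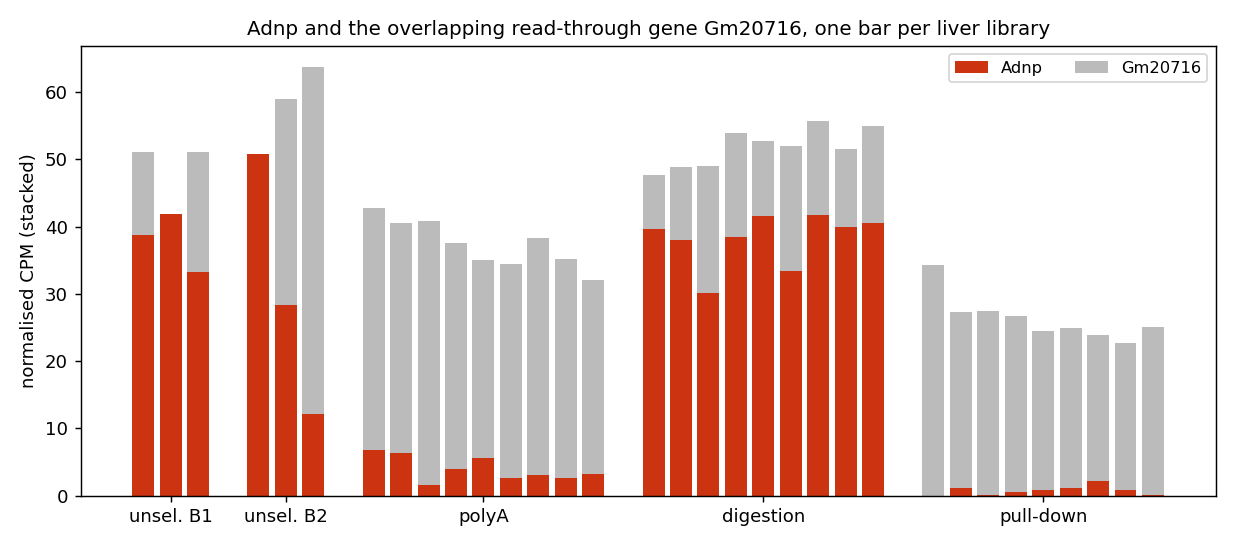
Normalised CPM of Adnp (red) and Gm20716 (grey), stacked, 1 bar per liver library. Adnp takes 61.3% to 83.3% of the stack after digestion and at most 8.90% after pull-down, while the whole stack falls by less.

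The low-depth library stood apart from the other 8 pull-down libraries for these genes. Mospd3 had 14 counts there, or 11.4 normalised CPM (exact Poisson 95% interval 6.25 to 19.2), against 1.07 ± 0.29 (SD, n = 8) in the other pull-down libraries. Pcbp1 had 44 counts, 35.9 normalised CPM (26.1 to 48.3), against 11.7 ± 0.98. The ratio to the mean of the other 8 was 10.7 for Mospd3, 3.06 for Pcbp1, 2.88 for Mbd6, 2.42 for Zfp395, 2.00 for Pcbp2 and 1.83 for Atn1. It was 1.11 for Pitpnb and 1.23 for Eif1, and Adnp had 0 counts there, which allows up to 3.01 normalised CPM. For 5 of the 9 genes (Mospd3, Pcbp1, Pcbp2, Mbd6, Zfp395) the interval lay wholly above the range of the other 8 libraries, as it did for 5.08% of the genes tested. The median ratio over 8607 genes with at least 5 normalised CPM in the other 8 libraries was 0.93. In the same library 12.7% of counts (Wilson 95% interval 12.7% to 12.8%) came from genes annotated as rRNA, against 0.0087% to 0.0216% in the other 8. These shares leave out mitochondrial rRNA. Counts outside all rRNA and Lars2 were 850123 of 1126377 in the low-depth library. They were 24165760 of 31592487 in the fast, long pull-down library and 22300826 of 25986761 in the medium-ramp, short one. The part of residual rRNA in the members' values was not tested. These intervals cover counting error only, and with 1 such library there is no replicate of it.

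After digestion the log2 levels of all 9 genes lay within 0.55 of those in unselected RNA. This comparison and the next were not used to choose the genes, although they share their libraries with the contrasts that were. Against unselected batch 2, 2 of 9 genes differed (edgeR, adjusted p under 0.05), where 14.7% of the genes tested did. Eif1, the start codon selection factor, was lower after digestion by a log2 fold change of -0.49 (SE 0.08, adjusted p = 3.7e-05). Pcbp1 was higher by 0.55 (SE 0.13, adjusted p = 0.0039). The other 7 genes had log2 fold changes between -0.02 and 0.48 with adjusted p from 0.17 to 0.97, the highest being Adnp, whose standard error was 0.36. Summed with Gm20716, Adnp's log2 fold change was -0.13 (SE 0.09, adjusted p = 0.42 by edgeR).

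PolyA selection gave higher levels of several of these mRNAs than unselected batch 1. Among the 9 genes, 6 differed, 5 of them higher, where 50.4% of the genes tested differed and 25.6% were higher. The log2 fold change was 0.60 (SE 0.24, adjusted p = 0.035) for Mospd3, 0.48 (SE 0.08, adjusted p = 7.0e-06) for Eif1, 0.42 (SE 0.13) for Pcbp1, 0.38 (SE 0.06) for Pitpnb and 0.32 (SE 0.09) for Pcbp2. The Mospd3 call was lost without unselected batch 1 replicate 2 (0.42, adjusted p = 0.21), without replicate 3 (0.68, adjusted p = 0.056) and with DESeq2 (0.65, adjusted p = 0.19). The Pcbp1 call was lost without replicate 3 (0.36, adjusted p = 0.0502). Adnp was lower by -3.12 (SE 0.37), and by -0.34 (SE 0.10, adjusted p = 0.0042 by edgeR) when summed with Gm20716. Atn1, Mbd6 and Zfp395 lay between -0.09 and 0.13 with adjusted p from 0.60 to 0.96.

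**Figure D4:**
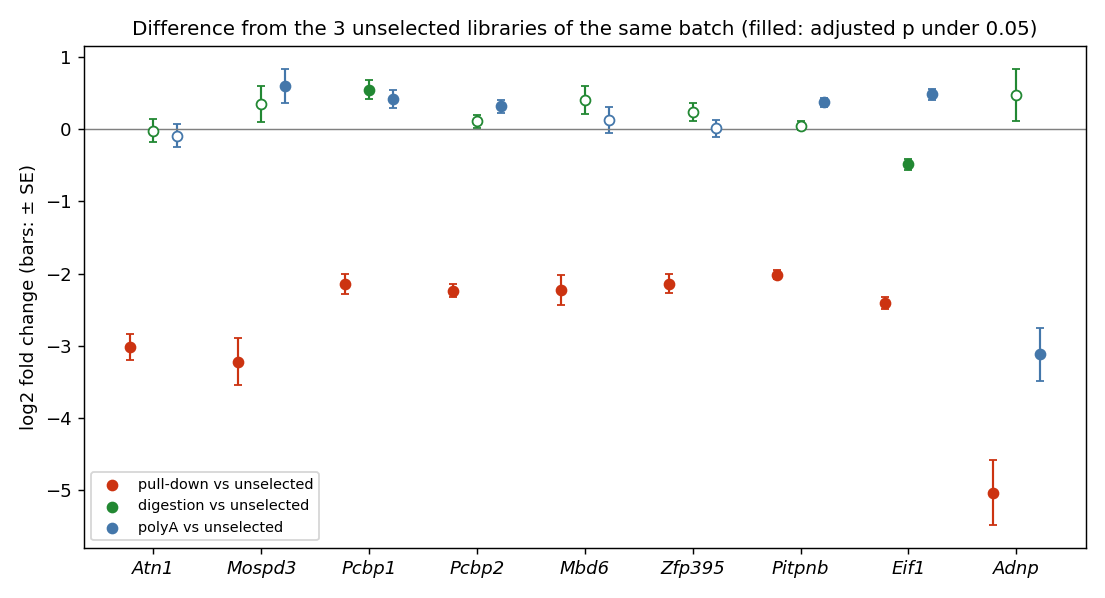
Log2 fold change with its standard error for each gene in pull-down, digestion and polyA libraries, each set against the 3 same-batch unselected libraries; filled points passed an adjusted p of 0.05. The 9 pull-down points lie at or below -2.02 and were used to choose the genes, the digestion points lie between -0.49 and 0.55, and only Adnp is far below 0 after polyA selection.

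Between polyA and digestion libraries 5 of 9 genes differed, where 80.6% of the genes tested did. Eif1 (0.89, SE 0.05), Mospd3 (0.60, SE 0.10), Pcbp2 (0.34, SE 0.05) and Pitpnb (0.28, SE 0.03) were higher after polyA selection, and Adnp was lower (-3.28, SE 0.20), by -0.47 (SE 0.05) when summed with Gm20716. The remaining 4 had log2 fold changes between -0.11 and 0.06. Within polyA libraries Atn1, Mbd6, Mospd3, Zfp395 and Pcbp1 were lower in long than in short libraries without overlap, as were 26.3% of the genes tested. Pitpnb was higher in long libraries without overlap (58.6 ± 1.16 against 54.8 ± 1.18, SD, n = 3 each), as were 28.9% of the genes tested. So was the sum of Adnp and Gm20716, at 40.6 to 42.7 in long and 32.1 to 38.4 in short libraries. These patterns were seen in the values and not tested. Atn1 averaged 17.2 ± 1.30 normalised CPM in long, 24.5 ± 2.96 in medium and 28.5 ± 2.58 in short polyA libraries (SD, n = 3 each), and Mbd6 averaged 23.7 ± 2.98, 35.5 ± 4.39 and 39.6 ± 3.93. Mospd3 averaged 17.0 ± 1.24, 20.1 ± 1.64 and 22.9 ± 1.94, and Zfp395 42.4 ± 1.45, 51.7 ± 1.78 and 53.4 ± 2.48. Pcbp1 averaged 75.8 ± 1.98, 85.2 ± 8.29 and 83.3 ± 3.86. The digestion means by length ran from 23.8 to 25.1 for Atn1, from 30.9 to 31.4 for Mbd6, from 12.8 to 13.5 for Mospd3 and from 50.6 to 54.2 for Zfp395. For Pcbp1 the digestion mean was highest in long libraries, at 80.7, with 75.8 in medium and 77.3 in short ones.

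Within the pull-down method, Eif1 was the 1 gene called for fragment length when all 9 libraries were used. Long, medium and short pull-down libraries averaged 35.9 ± 0.96, 27.7 ± 2.28 and 24.4 ± 1.07 normalised CPM (SD, n = 3 each), and the long and short libraries did not overlap. The log2 fold change of long against short was 0.59 (SE 0.08, edgeR adjusted p = 0.0065). Among the 9 genes, 1 was thus called, where 6.23% of the 14128 genes tested in the 9 pull-down libraries were. Leaving out 1 of the 8 deeper libraries at a time ended the call for 6 of the 8, with log2 fold changes from 0.54 to 0.61 and adjusted p from 0.052 to 0.17 in those 6. Without the low-depth library Eif1 was at 0.60 (adjusted p = 0.00010), and Pcbp2 (0.26, adjusted p = 0.0062), Mbd6 (-0.53, adjusted p = 0.036) and Zfp395 (-0.45, adjusted p = 0.026) were called too, in a fit that called 5398 of 14432 genes.

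In digestion, Eif1 averaged 104 ± 1.73 normalised CPM in short and 120 ± 2.87 in long libraries (SD, n = 3 each). The length effect in pull-down exceeded that in digestion by 0.37 on the log2 scale (SE 0.07, adjusted p = 0.0052, interaction term of edgeR's fit), the only call among the 9 genes, where 9.81% of the 15202 genes tested were called. It kept its call without any 1 pull-down library. Summed with Gm20716, Adnp was called as well (0.38, SE 0.07, adjusted p = 0.0041). Without the low-depth library 5 genes were called, with Eif1 (0.37) and Pcbp2 (0.18) positive and Mbd6 (-0.54), Atn1 (-0.39) and Pcbp1 (-0.24) negative, in a fit that called 3738 of 15439 genes.

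The ramp rate of the PCR cycler gave no call among the 9 genes in pull-down libraries, nor in any of the 14128 genes tested by edgeR (0.0%), where 120 genes had an unadjusted p under 0.05 with higher and 188 with lower values in fast libraries, and DESeq2 called 7. None of the 9 genes differed between the unselected batches either (0.366% of the 10642 genes tested did). The log2 fold change between batches ran from -0.33 (Mospd3) to 0.10 (Eif1), with adjusted p from 0.34 to 0.97. Without unselected batch 2 replicate 1, 1 of 2 unselected liver libraries in which Adnp held 100% of the counts it shares with Gm20716, Adnp was called (-0.88, adjusted p = 0.013, against -0.30 with all 6 libraries). Summed with Gm20716, Adnp's difference between batches turned positive, at 0.28 (SE 0.09, adjusted p = 0.25 by edgeR, all 6 libraries). The 9 genes had 37 to 755 counts in the unselected liver libraries, which limits what difference between batches could be detected.

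Heart was represented by 1 library, so its values were set beside the 3 unselected liver libraries of the same batch and not tested. These 4 libraries were scaled together, so the levels are not those given above for liver. Atn1 had 9.12 normalised CPM in heart against 5.86 ± 0.54 (SD, n = 3) in liver, and Eif1 45.3 against 35.0 ± 0.92. These 2 genes were above all 3 liver libraries, as were 45.0% of 12828 genes. The other 7 were below all 3, as were 42.9%. Zfp395 had 3.04 in heart against 12.3 ± 1.09 in liver, a ratio of 0.247, the lowest of the 9. The ratio was 0.267 for Adnp, 0.424 for Mospd3, 0.518 for Mbd6, 0.528 for Pitpnb, 0.607 for Pcbp1 and 0.812 for Pcbp2. Summed with Gm20716, Adnp was above the liver libraries, at 14.0 against 11.8 ± 1.32, since Gm20716 had 11.5 in heart. In heart Adnp held 17.8% of the counts of both genes. All 9 genes were thus detected in heart, with 40 (Mospd3) to 1325 (Eif1) counts. The heart RNA was not prepared by pull-down, so whether the deficit also occurs there was not analysed here.

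**Figure D5:**
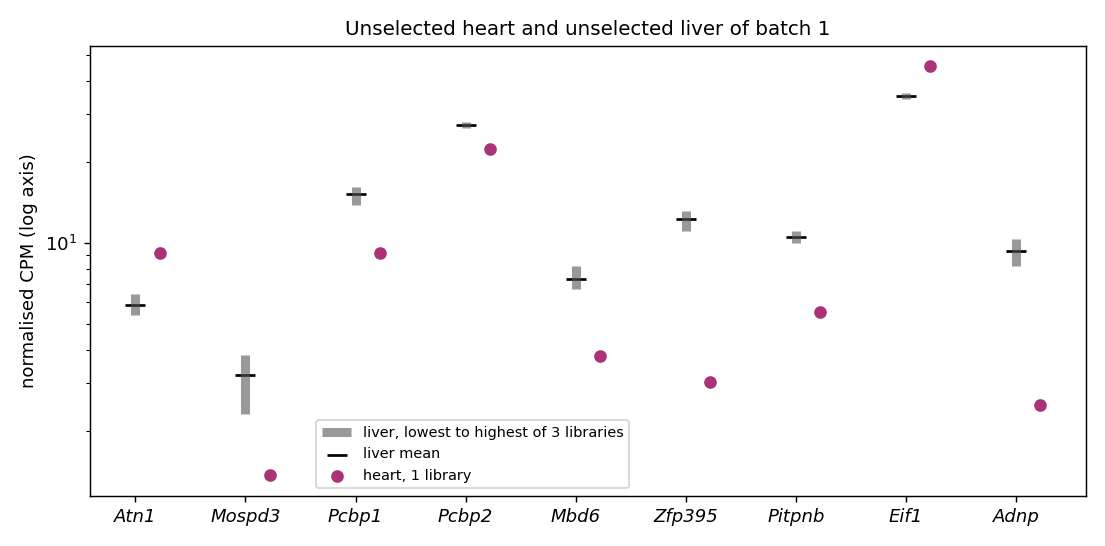
Normalised CPM (log axis) of the 9 genes in the unselected heart library (points) and the 3 unselected liver libraries of batch 1 (bars from lowest to highest, with the mean). Heart lies above liver for Atn1 and Eif1 and below it for the other 7 genes.

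A minority of the genes' relatives were low. Of a list of 30 genes related by family or complex (Pcbp3, Pcbp4 and Hnrnpk; Eif1 relatives and other initiation factors; phosphatidylinositol transfer proteins; methyl-CpG-binding proteins; Mospd and Vap genes; Rere; Zfp704; Adnp2, Chd4 and Cbx3), 9 were called lower and 2 higher in pull-down than in unselected RNA by edgeR, where 15.3% of all genes tested were lower and 17.5% higher, and the list's median log2 fold change was 0.04, beside 0.06 over all genes. In digestion against pull-down, 15 of 30 were called higher and 8 lower, where 34.7% and 36.01% of all genes tested were, with a list median of 0.07 beside -0.01 over all genes. Large differences from unselected RNA were seen in Rere (-1.53, SE 0.10), the co-repressor gene related to Atn1, Pitpnm3 (-1.34, SE 0.75, adjusted p = 0.25), Mbd3 (-1.21, SE 0.19), Pitpnm2 (-1.09, SE 0.15) and Mbd5 (-0.50, SE 0.09). All of these but Pitpnm3 passed the threshold. Eif1b, the close relative of Eif1 named after its value was seen, had a log2 fold change of 0.11 (SE 0.14, adjusted p = 0.66).

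The 9 genes were not the only ones with this profile. When 7738 protein-coding genes with a mean of at least 5 normalised CPM in the digestion, polyA and unselected groups were ranked by the mean log2 level in pull-down minus that of the lowest of the other methods (0.1 CPM added), Mospd3 ranked 1, Atn1 2, Pcbp2 6, Mbd6 7, Pcbp1 8, Zfp395 9, Pitpnb 13 and Eif1 16. Adnp was not ranked, because its polyA mean was 4.004 CPM. The score was -2.96 for Mospd3 and -1.92 for Eif1, against a median of 0.25 over the ranked genes; 139 genes were below -1 and 12 below -2. Other genes among the lowest scores were Stambp, a deubiquitinase gene (-2.63), Gm2000 (-2.54), the hydroxysteroid dehydrogenase gene Hsd17b11 (-2.05), the nucleotide sugar transporter gene Slc35d1 (-2.01) and Zadh2 (-2.01). Stambp, for example, had 0.817 to 2.05 normalised CPM after pull-down (median 1.56) and 9.05 to 10.5 after digestion (median 9.93). Gm2000 overlapped between the methods, with 0 to 18.9 after pull-down and 2.08 to 17.0 after digestion. These ranks use the contrasts that chose the 9 genes and are a description.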

How the data were processed

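The authors deposited a gene table of estimated counts (expected counts) for 34 libraries, with 51368 genes; 50896 identifiers matched GENCODE M21, and 10.5% of values were not whole. The submitters' processing notes name UMI-tools 1.1.1, Salmon 1.9.0, R 4.4.0 and GRCm38; whether duplicates were removed by molecular identifier is not given in the sources used here. Counts were rounded. edgeR 4.0.16 (R 4.3.3) was run with filterByExpr, TMM scaling and the quasi-likelihood test over the 33 liver libraries, with method group, ramp rate and fragment length as terms, and Benjamini-Hochberg adjustment over all genes (threshold 0.05). Pull-down and digestion were set against unselected batch 2, and polyA against unselected batch 1. Length and ramp were tested within the 9 pull-down libraries, the interaction over 18 libraries, and batch over 6. The scripts were tested on simulated counts with 200 changed genes. The members and gene lists were chosen with earlier results of these data known. The text names the members, up to 6 of 30 relatives with the largest fold change in pull-down, and the 6 other coding genes with the lowest deficit score; some genes these rules name are not reported here. The pseudocount of 0.1 was chosen after the files were seen. DESeq2 1.42.0, library totals, no filter, libraries left out and summed overlapping genes were tried as alternatives.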

Additional observations from a re-analysis of the deposited data

Results flagged for a closer look

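For 6 of the 9 genes the low-depth pull-down library, with slow ramp and long fragments, lay apart from and above the other 8 in normalised CPM by Dixon's gap test (limit 0.493 for 9 libraries). Its values were 5.72 for Atn1, 11.4 for Mospd3, 35.9 for Pcbp1, 42.5 for Pcbp2, 14.7 for Mbd6 and 24.5 for Zfp395. The sum of Adnp and Gm20716 was at 34.3 and passed the same limit. For Atn1 alone (7 counts, exact Poisson 95% interval 2.30 to 11.8) and for that sum (42 counts, 24.7 to 46.4) the interval overlapped the range of the other 8 libraries. Counting error could cover these differences. Summed with Gm45234, however, Atn1 had 20 counts there, or 16.34 normalised CPM, against 2.56 to 3.77 in the other 8. No interval was computed for the sum with Gm45234. For the other 5 genes the interval lay above the range of the other 8 libraries. Chance flags about 1 in 20 groups, 30 groups were examined, and these 7 share 1 library. In that library 12.7% of counts came from genes annotated as rRNA, mitochondrial rRNA left out. It held 1126377 counts in all, and the part of either was not tested.

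Eif1's fragment length effect differed between methods: long against short was larger in pull-down than in digestion by 0.37 on the log2 scale (interaction term, edgeR adjusted p = 0.0052).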

How the results depend on the processing

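With library totals in place of TMM, 4 of 9 genes differed between pull-down and unselected RNA (9 with TMM), and the log2 fold changes of Mbd6 (0.035), Zfp395 (0.13), Pitpnb (0.24), Pcbp1 (0.12) and Pcbp2 (0.025) changed sign. On the same scale all 9 differed between digestion and unselected RNA, where Eif1 was at 2.33, and the count of genes whose pull-down libraries lay below all others fell from 7 to 0, where 1 of 15422 genes had that pattern. The count of all genes called against unselected RNA was then 14677 for pull-down (14635 higher, 42 lower, against 2694 and 2358 with TMM), 15143 for digestion (2271 with TMM) and 14619 for polyA (7768 with TMM). DESeq2 divided the pull-down calls into 2038 higher and 2922 lower, and the digestion calls into 827 higher and 1578 lower (1092 and 1179 with edgeR). For fragment length in pull-down, 4 genes were called without the low-depth library, and 0 to 1 without each other library. The count over all genes was 880, with 77 to 365 without 1 deeper library, 5398 without the low-depth one and 2520 with library totals. For the interaction, 5 genes were called without the low-depth library and 2 with summed counts; over all genes the count was 1492, with 3719 by library totals, 3738 without the low-depth library and as few as 708 without a deeper one. For ramp rate, DESeq2 called 7 genes in all, no filter 21 and the fit without the low-depth library 17. Between unselected batches, 0 to 1 of the 9 genes was called without each library in turn, the 1 being Adnp without unselected batch 2 replicate 1 (-0.88, adjusted p = 0.013 by edgeR). The replicate numbers of the unselected libraries did not pair them (same-number correlations 0.00089, -0.05 and -0.07); with the number as a block, 0 of 9 genes were called, and 91 genes in all against 39, 103 by library totals, 120 with no filter, 7 by DESeq2 and 12 to 64 without 1 library. Without unselected batch 2 replicate 2, 1303 genes differed between digestion and unselected RNA. Atn1 and Eif1 were the 2 genes above liver in heart with other totals and without each liver library; summed with Gm20716, Adnp joined them. In the low-depth pull-down library each of the 9 genes had 0 to 52 counts, which limits the precision of its values.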

Other observations

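Over 7731 ranked coding genes with transcript features, a lower score in pull-down went weakly with longer transcripts (Spearman's rho -0.20), longer simple repeats (-0.18), higher GC content (-0.17) and longer runs shared with rRNA (-0.11). These correlations are across genes that share libraries, and are given as a description. The longest repeat and the longest run are the largest found in a transcript, and neither was adjusted for its length. The runs pool both strands.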
